A study of Mus musculus with 6 samples.

Results

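The 8 genes of the suppressor of cytokine signalling (SOCS) family, Cish and Socs1 to Socs7, were followed in transgenic CD4+ T cells that carried high or low amounts of CD25. CD25 is the chain of the receptor for interleukin-2 (IL-2) that gives it high affinity. The members were taken by name from a table of read counts over 15445 genes in 6 libraries, and all 8 had a row and passed the filter on low counts. The cells came from spleens of C57BL/6 mice on day 5 of infection with lymphocytic choriomeningitis virus (LCMV) and were sorted by flow cytometry after staining for CD25, CD4 and Thy1.1, an allelic form of the T cell surface protein Thy1 often used to track cells. There were 3 CD25-high and 3 CD25-low libraries, numbered 1 to 3 in each group. Both groups share the transgenic origin, the strain, the infection and the day, and differ by label in CD25 alone. The sources used here name neither the transgene nor the age of the mice, and they do not say whether each library came from its own animal. The p-values therefore describe the spread among these 6 libraries, part of which may be technical.

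SOCS proteins are feedback inhibitors of cytokine signalling. A cytokine receptor activates Janus kinases (JAKs), which phosphorylate STAT transcription factors, and STATs induce SOCS genes, whose products bind the receptor or the JAK through an SH2 domain. A C-terminal SOCS box recruits elongins and a cullin to attach ubiquitin to the bound protein. CIS, encoded by Cish, and SOCS2 are known as STAT5-induced products of IL-2 and related cytokines in T cells, and SOCS1 and SOCS3, which also block JAK catalysis, are known for limiting interferon, IL-2 family and gp130 cytokine signals. SOCS4 to SOCS7 are less well studied in T cells, and SOCS4 and SOCS5 have been linked to growth factor receptors.

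RefSeq promoter windows (GRCm38.p6) ran from 250 bases before to 50 bases after an annotated start. They were used for 4 of the 8 members, Cish, Socs1, Socs3 and Socs4, and no window is given for the others. The windows of Cish, Socs1 and Socs3 are shown because each holds a match to a motif of factors that act downstream of cytokine receptors. They are written 5′ to 3′ along the gene, with the matched bases in capitals. The Cish window is chr9:107296409-107296708 on the plus strand, the Socs1 window chr16:10785487-10785786 on the minus strand and the Socs3 window chr11:117969317-117969616 on the minus strand.
Cish: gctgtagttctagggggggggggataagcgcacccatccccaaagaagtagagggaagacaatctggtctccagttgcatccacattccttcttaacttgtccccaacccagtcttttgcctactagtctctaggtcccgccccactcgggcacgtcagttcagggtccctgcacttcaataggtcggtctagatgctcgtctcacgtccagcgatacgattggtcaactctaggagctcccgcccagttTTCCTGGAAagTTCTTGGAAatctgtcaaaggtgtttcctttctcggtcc
Socs1: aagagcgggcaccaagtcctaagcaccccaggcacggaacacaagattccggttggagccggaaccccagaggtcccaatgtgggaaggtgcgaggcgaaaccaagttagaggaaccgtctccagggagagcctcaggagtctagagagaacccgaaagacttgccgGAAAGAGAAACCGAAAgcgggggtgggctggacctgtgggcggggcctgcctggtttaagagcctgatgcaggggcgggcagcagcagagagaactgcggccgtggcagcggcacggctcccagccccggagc
Socs3: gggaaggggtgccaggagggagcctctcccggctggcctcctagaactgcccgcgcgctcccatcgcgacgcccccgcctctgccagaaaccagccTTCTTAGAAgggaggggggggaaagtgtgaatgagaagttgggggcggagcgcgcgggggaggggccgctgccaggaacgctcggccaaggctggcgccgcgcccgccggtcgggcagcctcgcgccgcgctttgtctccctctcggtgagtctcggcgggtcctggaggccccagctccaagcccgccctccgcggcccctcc

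Cish held 2 matches to TTCNNNGAA, the palindromic letters to which STAT dimers bind, starting at bases 1 and 12 from the annotated start, where base 1 is the start itself. Socs3 held 1 such match, starting at base -154. Socs1 held none but had 2 overlapping matches to GAAA and GAAA set 2 bases apart, part of the element that interferon regulatory factors bind, starting at bases -83 and -77. Both strands were searched, and TTC and GAA set 4 bases apart, the wider spacing preferred by STAT6, was found in 0 of the 4 windows. The Socs4 window held none of the 3 motifs. Of 32851 windows in the RefSeq table, 8.3% held TTCNNNGAA at least once and 0.457% at least 2 times. The paired GAAA motif was found in 3.44% of the windows and the wider STAT6 spacing in 6.95%. A match describes the letters only and does not show that a factor binds there.

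Il2ra, which encodes CD25 and is therefore fixed by the sort, had 1536, 432 and 666 CPM (read counts scaled to a library of 1000000) in CD25-high libraries 1, 2 and 3, against 20.7, 29.4 and 35.7 CPM in CD25-low libraries 1, 2 and 3. Library totals were 16787233 to 18847288 counts in CD25-high and 18810599 to 23567066 counts in CD25-low cells, with 29.26% to 35.33% of counts from mitochondrial ribosomal RNA. The 8 members together took 2115 to 2445 counts per CD25-high library and 2105 to 2835 per CD25-low library. T cell genes were abundant in every library, and 9 of them summed to 2840 to 3030 CPM in CD25-high and 2830 to 3840 CPM in CD25-low libraries. Of these 9, Cd3d and Cd3g were lower in CD25-high cells with the replicate block described below (edgeR adjusted p 0.0134 and 0.0135), calls that were lost with pair 1 left out (0.0729 and 0.0621). Of 10 B cell markers, 5 had a row and their summed level was 2.88 to 10.8 CPM in CD25-high and 2.79 to 5.34 CPM in CD25-low libraries, led by Cr2 and Fcer2a, while Cd79a, Ms4a1, Pax5 and Blnk were among those with no row. Of 14 myeloid markers, 8 had a row, with sums of 30.7 to 91.2 CPM in CD25-high and 30.6 to 47.6 CPM in CD25-low libraries, led by Itgam and Cd68. Itgam alone stood at 21.1, 77.2 and 71.6 CPM in CD25-high libraries 1, 2 and 3, against 5.03, 26.3 and 32.1 CPM in CD25-low libraries 1, 2 and 3. Adgre1, Cd14, Spi1, Ly6g and S100a8 were among the myeloid markers with no row. Dendritic cell markers summed to 33.2 to 43.9 CPM in CD25-high and 33.6 to 56.9 CPM in CD25-low libraries, led by Bst2 and Zbtb46. Markers of natural killer and CD8 T cells, led by Cd8b1 and Eomes, summed to 3.94 to 9.92 CPM in CD25-high and 3.18 to 4.64 CPM in CD25-low libraries. Markers of red cells and platelets, of which 2 of 8 had a row, summed to 2.27 to 2.99 CPM in CD25-high and 2.07 to 4.10 CPM in CD25-low libraries, led by Alas2. With that block 1 of the 5 myeloid markers tested rose, Itgam (1.57 ± 0.23 as log2 fold change ± SE, edgeR adjusted p 0.0013), which activated T cells can also carry, and 1 fell, Mpeg1 (-2.51 ± 0.64, adjusted p 0.0404). The part of these cells in the results below was not tested.

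Socs2 was higher in CD25-high cells and was the one member that passed the test without a replicate block. It stood at 9.01, 9.53 and 10.8 CPM in CD25-high libraries 1, 2 and 3, against 0.38, 0.64 and 1.41 CPM in CD25-low libraries 1, 2 and 3. The groups did not overlap, and the CD25-high libraries lay close together, with the highest 1.20 times the lowest, while the CD25-low libraries spread 3.67-fold around counts of 7, 15 and 34 reads. The mean was 9.79 ± 0.936 CPM in CD25-high, against 0.809 ± 0.533 CPM in CD25-low libraries (SD, n = 3 each). Socs2 rose by a log2 fold change of 3.57 ± 0.54 (SE) in CD25-high cells, with an adjusted p of 0.0189 by edgeR's quasi-likelihood test over 12987 genes. That was 12.1 times the CD25-low mean and the 16th largest log2 fold change of all genes tested. In RNA from many cells, fewer cells with a transcript and less of it per cell cannot be told apart. The call was lost without CD25-high library 2 (adjusted p 0.0599), CD25-high library 3 (0.103) or CD25-low library 2 (0.121), although the log2 fold change stayed between 3.25 and 4.23 in the 6 fits that each left out 1 library. With the replicate number as a block, which pairs same-numbered libraries, the log2 fold change was 3.72 ± 0.50 and the edgeR adjusted p 0.000716. Socs2 passed with that block whichever pair was left out (edgeR adjusted p 0.00944, 7.8e-05 and 4.32e-05 without pair 1, 2 or 3). Those fits have few libraries for their terms, and without pair 2 or 3 the adjusted p was below that of the full fit. Passing them is therefore weak evidence that the call is stable. Socs2 (ENSMUSG00000020027) spans chr10:95385362-95417180 on the minus strand (GENCODE M21, GRCm38), shares no exonic base with another gene there and has 14 annotated transcripts, which the counts do not separate.

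Cish stood at 15.9, 4.85 and 4.57 CPM in CD25-high libraries 1, 2 and 3, against 0.44, 1.36 and 0.17 CPM in CD25-low libraries 1, 2 and 3. Every CD25-high library lay above every CD25-low library, but the level varied within both groups, 3.47-fold among CD25-high and 8.24-fold among CD25-low libraries. The CD25-low values rest on 8, 32 and 4 reads. The lowest of them, 0.17 CPM, has an exact 95% Poisson interval of 0.0451 to 0.424 CPM, which covers counting error only. The mean in CD25-high cells was 12.9 times the CD25-low mean, and the log2 fold change was 3.66 ± 0.81 with an edgeR adjusted p of 0.0939, so Cish did not pass. It rose with the replicate block (3.77 ± 0.69, edgeR adjusted p 0.00621), and this call was lost with pair 1 left out (3.05 ± 0.84, adjusted p 0.0958). DESeq2 called it as well (adjusted p 0.000134).

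Among the CD25-high libraries, library 1 had the highest Cish, the highest Il2ra and the highest Socs6, whereas its Socs2 was the lowest of the 3. Foxp3, which marks regulatory T cells that themselves carry CD25, stood at 5.78, 2.29 and 3.84 CPM in CD25-high libraries 1, 2 and 3, against 2.30, 1.92 and 0.74 CPM in CD25-low libraries 1, 2 and 3. The ranges overlapped narrowly, and Foxp3 was higher in the CD25-high library of every same-numbered pair. The log2 fold change of Foxp3 was 1.27 ± 0.61 (edgeR adjusted p 0.490, and 0.278 with the replicate block). All 8 regulatory T cell markers had a row, with sums of 446 to 700 CPM in CD25-high and 639 to 898 CPM in CD25-low libraries. Ctla4, Tigit and Ikzf2 made up most of each sum, so the sums say little of Foxp3. Of the 6 markers tested, Ikzf2, which encodes Helios, fell (-1.40 ± 0.22, edgeR adjusted p 0.0241) and 5 did not pass. The log2 fold change was positive for 3 of the 6, Foxp3 among them. The part of regulatory T cells in the Cish and Socs2 values was not tested. Cish (ENSMUSG00000032578, chr9:107296026-107302784, plus strand) shares 479 exonic bases with the antisense gene Gm17041, which had 40, 19 and 4 reads in CD25-high and 3, 0 and 3 reads in CD25-low libraries 1, 2 and 3. It shares 261 exonic bases with the pseudogene Gm17040, also on the opposite strand. No strand setting is given in the sources used here, so reads of Cish and these genes cannot be told apart there. With the Gm17041 reads added, the Cish log2 fold change was 3.66 ± 0.73 (edgeR adjusted p 0.0601).

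**Figure D1:**
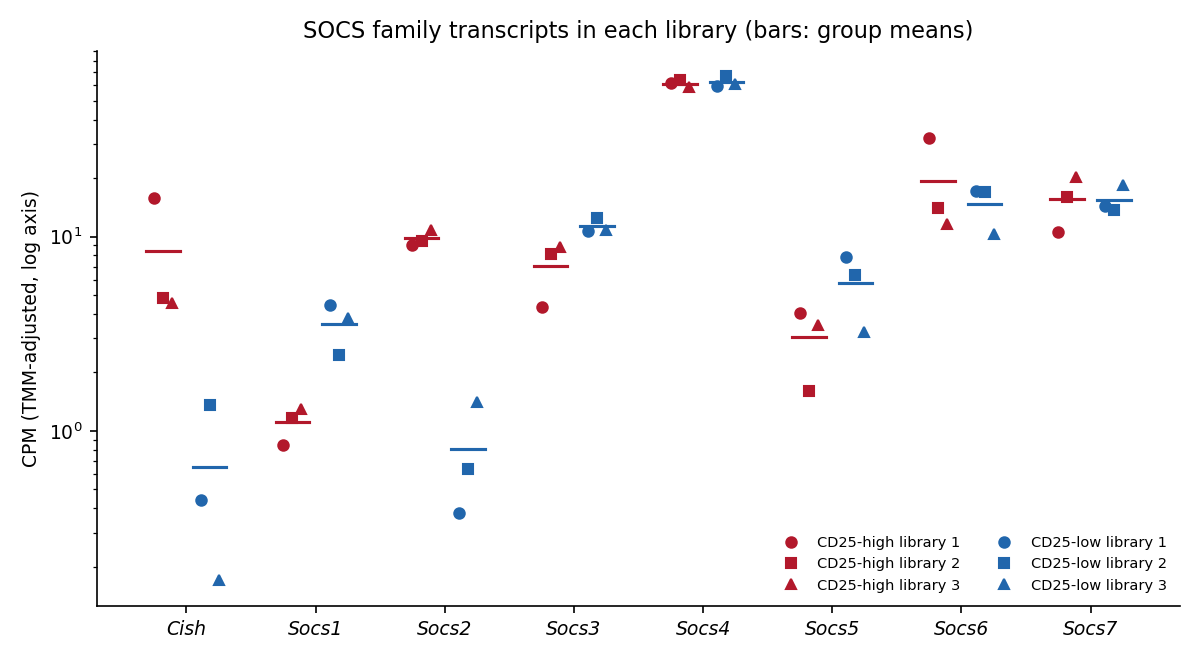
Level of each family member in each library, as TMM-adjusted CPM on a log axis, with CD25-high libraries (red) left of CD25-low libraries (blue); symbols give the library number and bars the group means. Cish and Socs2 lie higher in all CD25-high libraries, Socs1 and Socs3 lower, and Socs4 is level at 58.5 to 67.0 CPM.

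Socs1 and Socs3, whose products block JAK catalysis, did not pass in any fit. Socs1 stood at 0.85, 1.17 and 1.30 CPM in CD25-high libraries 1, 2 and 3, against 4.43, 2.47 and 3.81 CPM in CD25-low libraries 1, 2 and 3. The groups did not overlap, and the values rest on 15 to 23 reads in CD25-high and 58 to 92 reads in CD25-low libraries. The log2 fold change was -1.68 ± 0.56, which did not pass (edgeR adjusted p 0.297, and 0.163 with the replicate block). Socs3 stood at 4.36, 8.09 and 8.80 CPM in CD25-high libraries 1, 2 and 3, against 10.7, 12.4 and 10.8 CPM in CD25-low libraries 1, 2 and 3. CD25-high library 1 was the lowest, and again no CD25-high library reached a CD25-low one. Its log2 fold change of -0.67 ± 0.36 did not pass either (edgeR adjusted p 0.549, and 0.299 with the replicate block). Socs1 (ENSMUSG00000038037) lies at chr16:10782240-10785536 and Socs3 (ENSMUSG00000053113) at chr11:117966079-117970047, both on the minus strand and without exonic overlap.

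Socs5 stood at 4.02, 1.60 and 3.50 CPM in CD25-high libraries 1, 2 and 3, against 7.82, 6.34 and 3.23 CPM in CD25-low libraries 1, 2 and 3. CD25-low library 3 lay within the CD25-high range, so the groups overlapped, and the log2 fold change of -0.93 ± 0.53 did not pass (edgeR adjusted p 0.566). Socs6, known for binding receptor tyrosine kinases, stood at 32.2, 14.1 and 11.6 CPM in CD25-high libraries 1, 2 and 3, against 17.2, 16.9 and 10.3 CPM in CD25-low libraries 1, 2 and 3. CD25-high library 1 stood above the other 5 libraries, which shared a common range. The Socs6 log2 fold change was 0.38 ± 0.41 (edgeR adjusted p 0.800), and it was -0.20 ± 0.34 without CD25-high library 1.

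Socs4 was the most even member. It stood at 61.7, 63.6 and 58.5 CPM in CD25-high libraries 1, 2 and 3, against 59.7, 67.0 and 61.0 CPM in CD25-low libraries 1, 2 and 3. The ranges overlapped, and the log2 fold change was -0.03 ± 0.19 (edgeR adjusted p 0.972). Socs7, which has been linked to insulin signalling, stood at 10.6, 15.9 and 20.3 CPM in CD25-high libraries 1, 2 and 3, against 14.4, 13.6 and 18.5 CPM in CD25-low libraries 1, 2 and 3. The CD25-high libraries spread on both sides of the CD25-low ones, and the log2 fold change was 0.01 ± 0.32 (edgeR adjusted p 0.997). Socs4 (ENSMUSG00000048379) lies at chr14:47276931-47296102, Socs5 (ENSMUSG00000037104) at chr17:87107679-87137839 and Socs7 (ENSMUSG00000038485) at chr11:97362551-97398542, all on the plus strand. Socs6 is ENSMUSG00000056153.

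In the fit without the block, 1 of the 8 members rose, 0 fell and 7 did not pass, beside 0.655% of all 12987 genes called, 0.154% higher and 0.501% lower in CD25-high cells. At an unadjusted p under 0.05, edgeR had 3 members without the block, Cish, Socs1 and Socs2, beside 11.1% of all genes, and the same 3 with it, beside 18.1%. With the replicate block 2 members rose and 0 fell, beside 4.63% of all genes called, 1.73% higher and 2.9% lower. DESeq2, given counts without the filter on low counts, called the same 2 members, beside 2.44% of the 15429 genes to which it gave a p-value. DESeq2's own default filter can leave some of these without an adjusted p, so this share may be too low. It is also not over the same genes as the others. The limma voom fit called Socs2 alone, beside 0.724% of 12987. The groups did not overlap for 4 members, Cish and Socs2 higher and Socs1 and Socs3 lower in CD25-high cells, where 16.9% of all genes had no such overlap (7.41% higher and 9.54% lower). The median log2 fold change over the 8 members was -0.01, beside 0.01 over all genes tested.

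**Figure D2:**
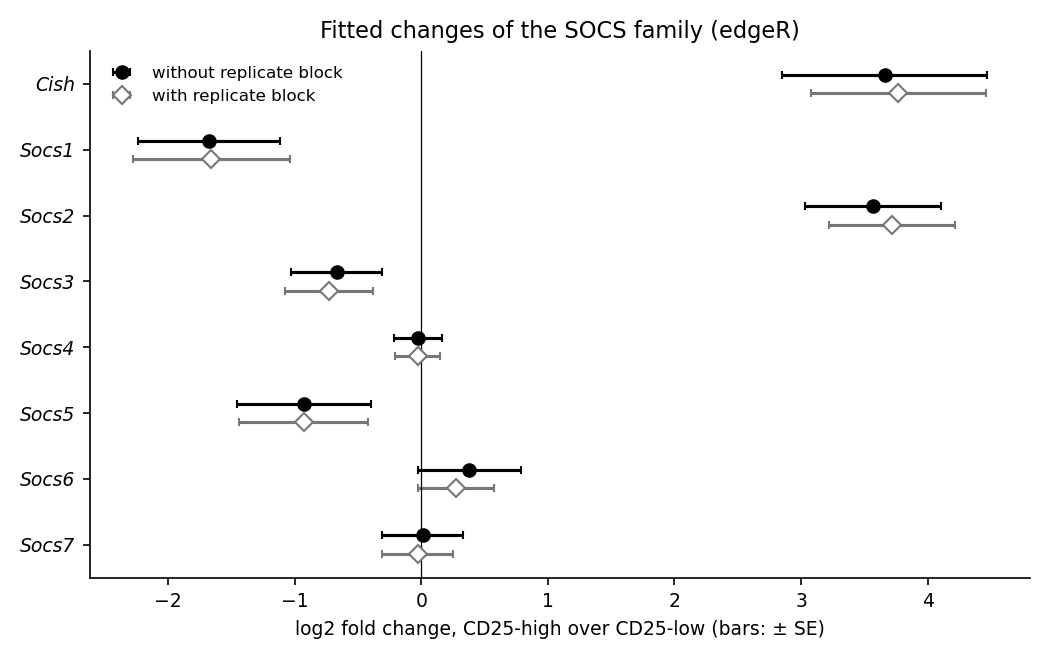
Fitted log2 fold change of each member, CD25-high over CD25-low, with bars of 1 standard error, from edgeR without (filled circles) and with (open diamonds) the replicate block. Cish and Socs2 lie between 3.57 and 3.77 in both fits, Socs1 at -1.68 and -1.66, and Socs4 and Socs7 between -0.03 and 0.01.

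Within same-numbered libraries, differences of log2(CPM + 0.5), CD25-high minus CD25-low, had one sign in all 3 pairs for 4 members. For Socs2 they were 3.43, 3.14 and 2.57 in pairs 1, 2 and 3. For Cish they were 4.13, 1.52 and 2.93, the widest span of the 8 members. Socs1 had -1.87, -0.83 and -1.26, and Socs3 had -1.21, -0.59 and -0.29. Pair 1 therefore gave the largest difference for each of these 4 members. They are the 4 members whose groups did not overlap, and groups without overlap give one sign in every pair. The count of one sign therefore adds nothing to the lack of overlap, which 16.9% of all genes had. The share of all genes with one sign in every pair was not counted. Socs4 lay between -0.07 and 0.05, and Socs5 (-1.71 to 0.10), Socs6 (-0.25 to 0.89) and Socs7 (-0.43 to 0.22) had pairs of both signs. The pseudocount of 0.5 draws the differences of genes with few reads toward 0.

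**Figure D3:**
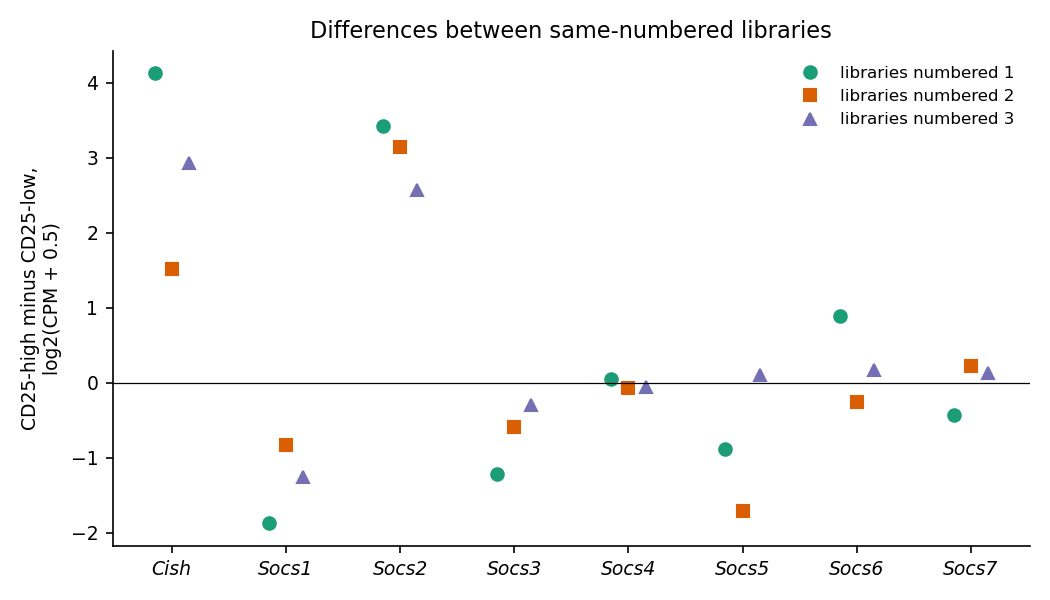
Difference between same-numbered CD25-high and CD25-low libraries for each member, in log2(CPM + 0.5), with 1 point per pair. All 3 points lie above 0 for Cish and Socs2 and below 0 for Socs1 and Socs3, and the pair numbered 1 is farthest from 0 in each of these.

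The relation between members of similar function was measured in each library as a log2 ratio of CPM values, with 0.5 added to each. The Socs2 to Cish log2 ratio was -0.78, 0.91 and 1.16 in CD25-high libraries 1, 2 and 3, against -0.09, -0.71 and 1.52 in CD25-low libraries 1, 2 and 3. The groups overlapped fully, with a mean difference of 0.19 and a two-sided exact permutation p of 1. The ratio of these STAT5-induced members thus varied among libraries of a group by more than between groups. The Socs3 to Socs1 log2 ratio was 1.85, 2.36 and 2.37 in CD25-high libraries 1, 2 and 3, against 1.19, 2.12 and 1.40 in CD25-low libraries 1, 2 and 3. Its mean difference was 0.63 (exact permutation p 0.2, two-sided), where 3 against 3 libraries cannot give a p below 0.1. It was 0.24 with a pseudocount of 2 and 0.86 with one of 0.1. Within pairs 1, 2 and 3 the Socs3 to Socs1 log2 ratio differed by 0.66, 0.24 and 0.97, CD25-high minus CD25-low, and the Socs2 to Cish log2 ratio by -0.70, 1.62 and -0.36.

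Levels of different members were compared as CPM per kb of exon, which divides by the length of all annotated exons. Other choices of length gave other orders, as described below. Socs4 was first in both groups, at 8.91 ± 0.377 CPM per kb in CD25-high and 9.10 ± 0.567 CPM per kb in CD25-low cells (SD, n = 3 each), and its lowest library stood above the highest library of the next member in each group. Next in CD25-high cells came Socs3 (2.45 ± 0.824), Socs7 (2.15 ± 0.665), Socs6 (1.70 ± 0.992), Cish (1.31, with libraries at 0.712 to 2.47) and Socs2 (1.03 ± 0.0982 CPM per kb), and neighbours in this stretch overlapped between libraries. Socs5 (0.474 ± 0.199) and Socs1 (0.380 ± 0.0793 CPM per kb) followed, below every Socs2 value and overlapping with each other. In CD25-low cells the order after Socs4 was Socs3 (3.91 ± 0.323), Socs7 (2.13 ± 0.355), Socs6 (1.30 ± 0.344), Socs1 (1.23 ± 0.344), Socs5 (0.904 ± 0.366), Cish (0.102 ± 0.0978) and Socs2 (0.0849 ± 0.0559 CPM per kb). There Socs3 and Socs7 were each separate from the next member, Socs6, Socs1 and Socs5 overlapped in turn, and Cish and Socs2 overlapped with each other below all others.

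By all exons Cish and Socs2 thus held the last places in CD25-low cells and middle places in CD25-high cells, and Socs1 was last in CD25-high cells. Cish and Socs2 made up 7.02% ± 5.12 and 5.59% ± 0.649 of the family's summed CPM per kb in CD25-high cells, against 0.531% ± 0.494 and 0.458% ± 0.318 in CD25-low cells. Socs3 made up 13.4% ± 4.82 in CD25-high and 20.8% ± 1.09 in CD25-low cells, and Socs4 48.5% ± 2.82 in CD25-high and 48.5% ± 1.90 in CD25-low cells (SD, n = 3 each). By all exons the family's summed level was 18.4 ± 0.637 CPM per kb in CD25-high and 18.8 ± 0.732 CPM per kb in CD25-low cells, and the libraries of the groups overlapped. The sum depended on the length used. It was 22.2 ± 1.70 CPM per kb in CD25-high and 21.0 ± 1.10 CPM per kb in CD25-low cells by the longest transcript, where the libraries overlapped too, and 109 ± 8.73 CPM per kb in CD25-high and 94.2 ± 4.21 CPM per kb in CD25-low cells by coding length, where they did not. Reads were counted per gene, whereas coding length covers only part of its exons. It was 601 of 9531 exonic bases for Socs2 and 771 of 6419 for Cish, so this divisor gives these members more weight in the sum. Not divided by length, the 8 members summed to 126 ± 11.3 CPM across CD25-high libraries, against 115 ± 5.78 CPM across CD25-low libraries, which overlapped. Shares and places in the middle depended on the length as well. Socs2 was number 6 of the 8 in CD25-high cells by all exons, number 4 by the longest transcript and number 2 by coding length, with shares of 5.59%, 10.4% ± 1.56 and 15% ± 2.32 in CD25-high cells, against 0.458%, 0.928% ± 0.658 and 1.45% ± 1.01 in CD25-low cells. With the longest transcript or with coding length in place of all exons, Socs4 stayed first in both groups, Socs1 last in CD25-high cells, and Cish and Socs2 the last pair in CD25-low cells.

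**Figure D4:**
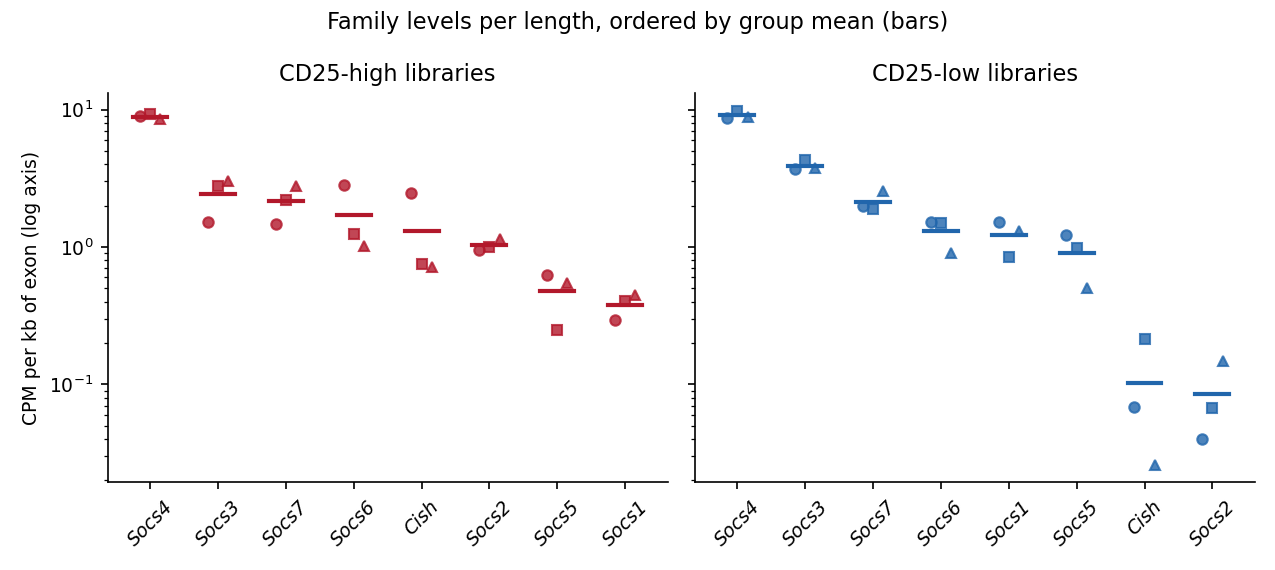
Level per length of each member, in CPM per kb of exon on a log axis, in CD25-high (left) and CD25-low libraries (right); members are ordered by the group mean (bar), and symbols give library numbers 1 (circle), 2 (square) and 3 (triangle). Cish and Socs2 are the last pair in CD25-low cells, at 0.102 and 0.0849 CPM per kb, and stand above Socs5 and Socs1 in CD25-high cells.

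Among 8243 other genes with a mean of at least 5 CPM, the genes whose centred log2 profile over the 6 libraries lay nearest to Socs2 were Cpd, Slc16a10 and Fam129b, with root mean square differences of 0.36, 0.57 and 0.61. Cpd encodes a carboxypeptidase and Slc16a10 an amino acid transporter. Cish averaged below 5 CPM over the 6 libraries, so it was not among the genes compared with Socs2. The genes nearest to Cish were Cpd, Slc16a10 and Maats1, at 0.71, 0.73 and 0.79. Cpd stood at 166, 127 and 152 CPM in CD25-high libraries 1, 2 and 3, against 22.4, 20.7 and 25.6 CPM in CD25-low libraries 1, 2 and 3. The 6 libraries share the group difference, so this measure mostly ranks genes by the size of that difference.

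The genes that act around the family were taken from lists, and their calls are read beside the 0.655% of all genes called without and the 4.63% called with the replicate block. Counts at an unadjusted p under 0.05 are from the edgeR fit without the block and are read beside 11.1% of all genes. The SOCS box works through a ubiquitin ligase. Of 9 tested partners (elongins, cullins and ring-finger proteins among them) 0 passed with edgeR in either fit, 0 at an unadjusted p under 0.05 and 0 with DESeq2 or limma voom, a count near the share of all genes called. Their median was -0.11 on the log2 scale, and the smallest p belonged to Rbx1 (-0.21 ± 0.28, adjusted p 0.852, unadjusted 0.485). Of 13 tested genes for other SOCS-box proteins 0 passed with edgeR in either fit or with DESeq2 or limma voom, with a median of -0.11, and the 1 with an unadjusted p under 0.05 was Rab40c (-1.21 ± 0.50, edgeR adjusted p 0.412, unadjusted 0.0366). Of 14 other inhibitors of JAK-STAT signalling, Sh2b3, which encodes the adaptor LNK that restrains JAK2, fell (-2.45 ± 0.40, edgeR adjusted p 0.0257) and 13 did not pass. Sh2b3 stood at 5.27, 2.98 and 3.27 CPM in CD25-high libraries 1, 2 and 3, against 24.5, 12.5 and 26.1 CPM in CD25-low libraries 1, 2 and 3. With the replicate block 4 of the 14 fell, among them also Ptprc, which encodes the phosphatase CD45 (-1.07 ± 0.14, adjusted p 0.00053), and Ptpn11, which encodes SHP2 (-0.65 ± 0.16, adjusted p 0.0324).

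Of the 4 JAK genes 0 passed with edgeR without the block and 0 with DESeq2 or limma voom. At an unadjusted edgeR p under 0.05 there were 3, beside 11.1% of all genes. All 4 log2 fold changes were negative, and with the block Jak1 fell (-0.69 ± 0.16, edgeR adjusted p 0.0225). The share of all genes with a negative log2 fold change was not counted, and the median over all genes tested was 0.01. Jak3, which works with the common gamma chain, averaged 31.7 ± 2.66 CPM across CD25-high libraries, against 45.1 ± 4.88 CPM across CD25-low libraries (SD, n = 3 each), with an edgeR adjusted p of 0.417. Of 7 STAT genes, Stat2, which carries interferon signals, fell (-1.32 ± 0.22, edgeR adjusted p 0.0273), and 6 did not pass. Stat5a averaged 45.5 ± 3.54 CPM across CD25-high libraries, against 69.4 ± 9.94 CPM across CD25-low libraries, and Stat5b 51.6 ± 8.30 CPM across CD25-high libraries, against 58.0 ± 4.79 CPM across CD25-low libraries (SD, n = 3 each), neither passing with edgeR (adjusted p 0.308 and 0.834). Jak3, Stat5a and Stat5b were chosen after their values were seen, as the kinase and factors nearest to Cish and Socs2 in the pathway. The median log2 fold change was -0.52 over the JAK and -0.49 over the STAT genes.

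Among 8 tested receptors of the common gamma chain family, the sort marker Il2ra was the single gene called without the block, and the median log2 fold change was 0.19. With it Il2rb, the beta chain that IL-2 and IL-15 share, rose too (1.02 ± 0.17, edgeR adjusted p 0.00327), with 448, 540 and 551 CPM in CD25-high libraries 1, 2 and 3, against 177, 244 and 372 CPM in CD25-low libraries 1, 2 and 3. Of 6 gp130 and IL-12 family receptors, Il12rb2 rose (1.27 ± 0.24, edgeR adjusted p 0.0443) and Il6st, which encodes the gp130 chain that SOCS3 binds, fell (-1.95 ± 0.32, adjusted p 0.0257). Il6st stood at 36.6, 19.5 and 22.5 CPM in CD25-high libraries 1, 2 and 3, against 133, 102 and 68.0 CPM in CD25-low libraries 1, 2 and 3. With the block Il6ra fell as well (-1.04 ± 0.27, edgeR adjusted p 0.0448), and the median of the 6 was -0.56. Of 5 interferon and IL-10 family receptors, Ifnar2 fell (-1.50 ± 0.25, edgeR adjusted p 0.0257) and 4 did not pass, with a median of -0.74.

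The growth hormone, prolactin and other receptors with which CIS and SOCS2 are classically studied were scarce: 5 of 10 had a row. Of the 2 tested, Igf1r and Insr, edgeR without the block called 0, DESeq2 1 (Igf1r) and limma voom 0. Both had an unadjusted edgeR p under 0.05, beside 11.1% of all genes. The log2 fold change was -4.84 ± 1.03 for Igf1r and -1.15 ± 0.39 for Insr (edgeR adjusted p 0.308 for Insr). Their median of -3.00 rests on these 2 genes alone and does not describe the receptors as a class. Igf1r, the receptor for insulin-like growth factor, stood at 0.23, 0.05 and 0 CPM in CD25-high libraries 1, 2 and 3, against 1.42, 4.17 and 2.85 CPM in CD25-low libraries 1, 2 and 3, and fell with the block (edgeR adjusted p 0.0221) but did not pass without it (0.0820).

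Of 23 other genes, Il2rb among them, that are known to be induced by IL-2 or STAT5, 3 rose without the block, Ccnd2 (1.74 ± 0.24, edgeR adjusted p 0.0104), Prdm1 (1.69 ± 0.25, adjusted p 0.0159) and Il12rb2, and 20 did not pass. Of all genes 0.154% rose without the block. With the block 11 of the 23 rose, beside 1.73% of all genes, and 1, Lif, fell (-3.85 ± 0.75, edgeR adjusted p 0.00928, and 0.443 without it). The median log2 fold change of these 23 genes was 0.86, beside 0.01 over all genes tested, and 17 of the 23 were positive. The share of all genes with a positive change was not counted. This list was chosen with earlier results of these data known, so it gives no independent support. Gzmb, which encodes granzyme B, was among the 11 that rose with the block (1.89 ± 0.23, edgeR adjusted p 0.000347 with the block, and 0.348 without it). For both Lif and Gzmb the CD25-high and CD25-low ranges overlapped. The calls made without the block for Ccnd2, Prdm1, Il12rb2, Sh2b3, Stat2, Il6st and Ifnar2 depended on single libraries. Without CD25-high library 3 all 7 were lost (edgeR adjusted p 0.0797 to 0.216). Without CD25-high library 2 all but Ccnd2 were lost (0.0529 to 0.129), without CD25-low library 2 all but Sh2b3 (0.0917 to 0.161), without CD25-low library 1 all but Ccnd2 and Prdm1 (0.0549 to 0.141) and without CD25-low library 3 all but Prdm1 and Il6st (0.0676 to 0.177). With the block these 7 genes passed whichever pair was left out. Those fits have few libraries for their terms, so passing them is weak evidence of a stable call. Of the genes called with the block alone, Ptpn11, Il6ra and Igf1r passed in 1 and Jak1 in 2 of the 3 fits without a pair, with highest adjusted p-values of 0.107 for Igf1r to 0.356 for Il6ra.

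**Figure D5:**
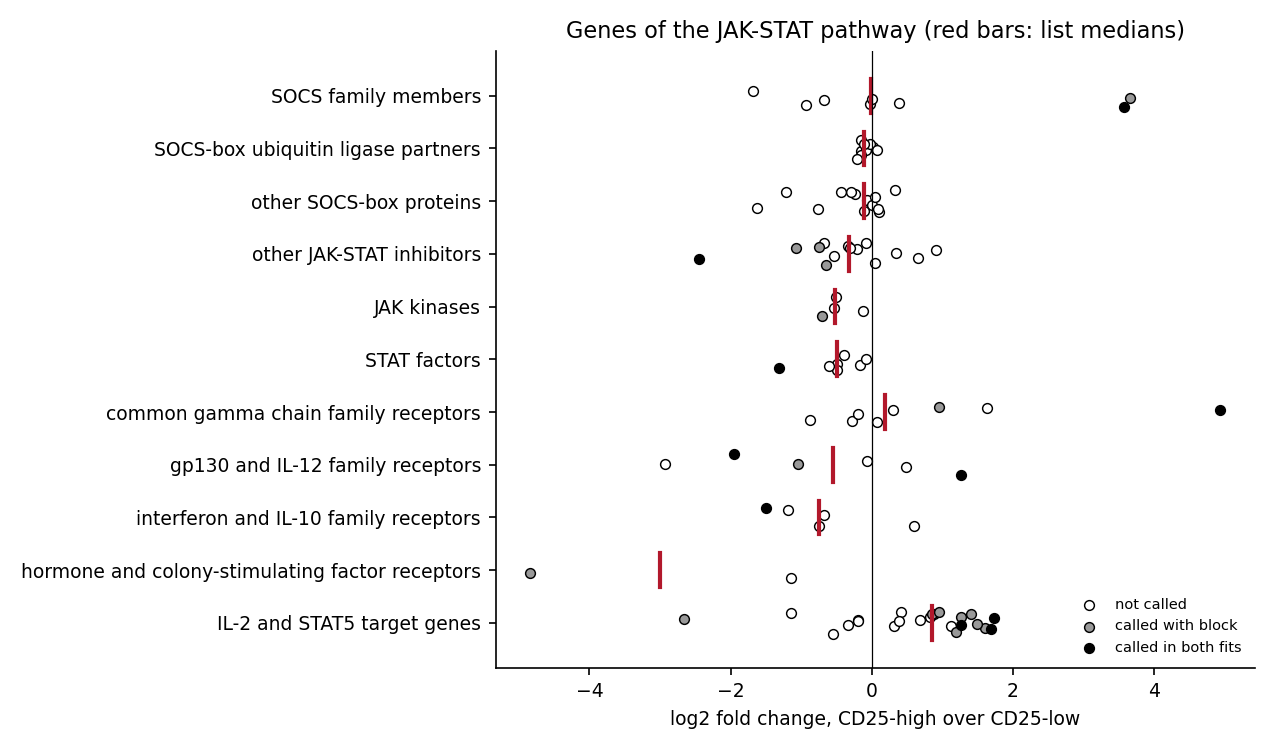
Log2 fold change, CD25-high over CD25-low, of every tested gene on the family's own list and 10 lists of surrounding pathway genes; black points passed an edgeR adjusted p of 0.05 in both fits, grey points with the replicate block alone and white points in neither, and red bars are list medians. SOCS-box partners have a median of -0.11, and the genes induced by IL-2 or STAT5 have a median of 0.86.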

How the data were processed

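Per the labels' protocols, libraries were made from total RNA of sorted cells by a NuGEN kit (Ovation RNA-Seq System v2). The authors deposited raw counts of reads per Ensembl gene for 6 libraries. The submitters' processing notes list Novoalign and DESeq2 beside hg19 and mm10, and give no version or role. The counting program, its annotation and its strand setting are not stated there. The smallest total of a row was 10 reads. Names and lengths came from GENCODE M21 (GRCm38), which named 15169 of 15445 genes.

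The counts were tested with edgeR 4.0.16 in R 4.3.3 (quasi-likelihood F test, TMM factors, filterByExpr at a minimum count of 10 and total of 15, group as the only term), with Benjamini-Hochberg adjustment over 12987 genes and a threshold of 0.05. Dividing the size of a log2 fold change by the root of its F statistic gave its standard error (SE), and CPM is scaled by the TMM-adjusted library size. Alternatives used DESeq2 1.42.0, limma 3.58.1, other factors and filters, thinned counts, and each library left out. The fits were also run on counts simulated with differences between replicate numbers, a setting that matches the fit with the block. Their outcome is not given here. Over 2000 variable genes, CD25-high and CD25-low libraries with the same number deviated from their groups together (correlations 0.47, 0.31 and 0.25, each over the limit of 0.1, against -0.37 to 0.19 for other combinations). The numbers were therefore treated as pairs in the fits with the replicate block, which no label states, while the main fit ignored them. CD25-high library 2 with CD25-low library 3 (0.19) also lay over that limit. The pairing was read from the same counts that were then tested. No pair of replicates agreed within counting noise (27.8 to 98.4 as chi-square over its degrees of freedom). The members and lists were chosen with earlier results of these data known. Named genes are the 8 members, Il2ra, on each pathway list up to 3 called genes per direction (or the 1 with the smallest p), the 2 most abundant markers of each other cell type, and the 3 genes nearest in profile to each called member. Foxp3 and Ikzf2 were added after their values were seen. One list of target genes is not reported here.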

Additional observations from a re-analysis of the deposited data

How the results depend on the processing

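The count of members called was 2 in place of 1 with the replicate block, with DESeq2, and with the block and pair 2 or pair 3 left out, 0 to 1 without 1 library, and 1 in the other alternatives. Over all genes 85 were called, and 601 with the replicate block, 376 with DESeq2, 22 to 130 without 1 library, 380 with the libraries numbered 1 left out, and 461, 486 and 536 with the block and pair 1, 2 or 3 left out. Cish kept a positive log2 fold change in all 21 alternatives (2.62 to 4.96), as did Socs2 (3.25 to 4.23), and Socs1 (-1.96 to -1.31), Socs3 (-0.94 to -0.42) and Socs5 (-1.45 to -0.43) stayed negative. Cish was 2.62 ± 0.84 with the libraries numbered 1 left out. Members near 0 changed sign. Socs7 was -0.03 with the block and with limma voom, 0 with thinned counts, -0.16 and -0.10 with the block and pair 2 or 3 left out, and -0.22 to 0.22 without 1 library. Socs6 was -0.08 with the libraries numbered 1 left out, -0.05 with the block and pair 1 left out, and -0.20 to 0.66 without 1 library, and Socs4 -0.06 to 0.02 without 1 library. The Socs2 to Cish log2 ratio differed by 0.19 between groups with the replicate block too (exact p 1) and by -0.29 to 0.83 without 1 library, and the Socs3 to Socs1 ratio by 0.63 with the block (exact p 0.25, the smallest that 3 pairs can give), by 0.24 to 0.86 with other pseudocounts and by 0.44 to 0.90 without 1 library. By the longest transcript 3 members in CD25-high and 2 in CD25-low cells kept their place by level, and by coding length 3 and 4, because the lengths differ. Coding length from RefSeq proteins was not used here. Alternatives with the libraries numbered 1 or a pair left out, with Gm17041 added and with coding length were chosen after seeing the data. The low counts of Cish, Socs1 and Socs2 limit their precision.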
